A study of Macaca mulatta with 449 samples.

Results

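A set of 10 genes was followed across the brain of the rhesus macaque: SP8, SP9, TBX21, DLX1, DLX2, DLX5, DLX6, FRMD7, MS4A15 and WDR64. They were set apart by high RNA levels in the olfactory bulb (OB), or by membership of the DLX and SP families of transcription factors. They were picked by symbol, with their levels in OB and striatum in view. Their levels there against other regions are therefore described here and not tested. Tests within OB and striatum compared only the striatal sub-regions, the age groups and the sexes. Of the 10 symbols, 7 had a row among the 30807 genes counted, in 8 rows. SP8 (ENSMMUG00000003722), SP9 (ENSMMUG00000023005), FRMD7 (ENSMMUG00000003479), MS4A15 (ENSMMUG00000000017), WDR64 (ENSMMUG00000008763) and DLX6 (ENSMMUG00000049169) were named by a reference table of gene symbols. DLX1 (ENSMMUG00000048041) and a second DLX6 row (ENSMMUG00000040199) were named only in the study's supplement. The symbols TBX21, DLX2 and DLX5 were paired with no row by the tables used here, which hold part of the study's gene names, so their expression was not analysed here. TBX21 is named in the gene-level analysis of the study itself.

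RNA had been sequenced after removal of ribosomal RNA. The 408 samples used here came from 51 sub-regions of the same 8 animals. The animals, called Rhesus 2, 3, 4, 6, 7, 8, 10 and 11, were 4 males and 4 females, and 4 were young (3.2 to 5 years) and 4 mid-aged (9.8 to 10 years). No treatment or genotype was applied, and the samples were pieces of tissue, so fewer cells of a type and less RNA per cell cannot be told apart. OB gave 8 samples, and the striatum (STR) 24 from the accumbens nucleus (ACb), caudate nucleus (CN) and putamen (PUT). The cerebral cortex gave 248 from 31 sub-regions, which leave out the entorhinal and perirhinal cortex. The gene counts of a sample summed to 7784678 to 31083490, with a median of 10698602. Levels are in CPM, the read count of a gene relative to its library's total, with totals scaled by the TMM method, and n is 8 animals unless stated.

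DLX genes encode homeodomain transcription factors of the embryonic ventral forebrain, where they drive the making and migration of neurons that use GABA, the main inhibitory transmitter. They lie in convergent pairs, DLX1 with DLX2 and DLX5 with DLX6. SP8 and SP9 are zinc finger factors of the same lineage. In mammals, neurons born along the lateral ventricle migrate to the OB and become granule and periglomerular interneurons, many of which carry SP8, while SP9 is known from striatal projection neurons. TBX21 marks projection neurons of the OB, FRMD7 encodes a FERM domain protein altered in inherited nystagmus, MS4A15 a membrane protein of the MS4A family, and WDR64 a protein with WD repeats.

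No row of the count table carried DLX2 or DLX5, but the deposited transcript assembly held a model for each, with names from the study's text. The study described both as region-associated in the olfactory bulb and as absent from the annotation it used. On Mmul 8.0.1, the DLX2 model lay at chr12:59125022-59128351 on the minus strand, in 3 exons with 2326 exonic bases. Its exons ran from 59125022 to 59126457, 59126970 to 59127154 and 59127647 to 59128351. The DLX5 model lay at chr3:122459554-122463971, also on the minus strand, in 3 exons with 1416 exonic bases, from 122459554 to 122460235, 122461357 to 122461541 and 122463423 to 122463971. Neither overlapped another assembled transcript. The nearest one lay 5817 bases from the DLX2 model and 4447 bases from the DLX5 model. In the order of genes in the RefSeq annotation of a later assembly (T2T-MMU8v2.0), 0 genes lay between DLX1 and DLX2 on chromosome 12 and 0 between DLX5 and DLX6 on chromosome 3. SP9 shared chromosome 12 with DLX1, with 30 genes between them, 11 of them protein-coding.

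The OB label was checked against markers. CDHR1, a protocadherin of mitral and tufted cells, was highest in OB at 50.4 ± 32.3 CPM (SD), against 9.17 CPM in the next sub-region. The other 4 listed genes of these cells were not highest there: RELN ranked 8 of the 51 sub-regions, SLC17A6 36, TBR1 38 and SLC17A7 40. Of the OB interneuron markers, TH (71.5 CPM) and SYNPR (1129 CPM) ranked 3, CALB2 ranked 6, and CALB1 (25.9 CPM, against 129 CPM in the cortex) ranked 49. Chosen after their values were seen, MEIS2, TSHZ1 and PBX3, factors of OB interneurons and of the ventral forebrain, were also highest in OB, at 864 ± 152, 369 ± 59.3 and 231 ± 30.2 CPM. They were 3 of 24 listed GABA lineage factors, of which others were among their lowest in OB (FOXP1 ranked 51, PROX1 49 and LHX6 43). GAD1, an enzyme of GABA synthesis, reached 954 ± 94.4 CPM there, the highest of the 51 sub-regions, whereas GAD2 (637 CPM) and SLC32A1 (120 CPM) ranked 4, below ACb, CN and PUT. Markers of another kind rose with it: 6 fibroblast and leptomeninges genes summed to 349 to 844 CPM in the OB samples, against 45.8 to 87.6 CPM in the cortex of the same animals, and 3 of them (COL1A2, COL3A1 and OGN) were highest in OB. Their part in the members' OB levels was not tested.

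SP8 had the highest OB level of the members. Its lowest, median and highest OB samples held 110, 145 and 178 CPM, from 1492 counts or more each. The next sub-region was the inferior precentral gyrus (IPrCG), at 8.74 ± 2.07 CPM, 16.5-fold lower, and within each animal OB exceeded that animal's highest other sub-region by 12.4 to 17.6 times. The OB and IPrCG samples did not overlap, whereas no other neighbours in the order of the 51 sub-regions were separated. The cortex as a whole held 6.25 ± 0.87 CPM of SP8 and the striatum 0.467 ± 0.27 CPM, below the cortex in 8 of 8 animals. In CBV, the cerebellar vermis, all 8 samples were at 0.

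FRMD7 was the most restricted of the abundant members. OB samples ran from 70.5 through a median of 93.7 to 125 CPM, and ACb followed at 0.645 ± 0.48 CPM, 153-fold lower. Of the 400 samples outside OB, 215 held no FRMD7 read and 31 held more than 3. Those few reads were not spread evenly. The striatum held 112 counts at 0.479 ± 0.26 CPM and the cortex 200 counts at 0.0708 ± 0.02 CPM, and the striatal value was higher in 8 of 8 animals. The hypothalamus held 35 counts at 0.372 ± 0.21 CPM, above the cortex in 7 of 8 animals.

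WDR64 and MS4A15 were lower and varied more between animals. WDR64 had 6.24, 16.1 and 33.4 CPM in its lowest, median and highest OB samples, with a coefficient of variation of 56.1%, against 15.8% for SP8 and 20.8% for FRMD7. Its next sub-region was PA, the entorhinal and perirhinal cortex, at 0.304 ± 0.14 CPM. MS4A15 had 3.51, 7.10 and 13.3 CPM in OB and 0.140 ± 0.22 CPM in CN, its next sub-region. In OB, Rhesus 10 had the most WDR64 (33.4 CPM) and Rhesus 11 the next most (24.9 CPM), and Rhesus 11 had the most MS4A15 (13.3 CPM). In 304 of the 400 samples outside OB, MS4A15 had no read.

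**Figure D1:**
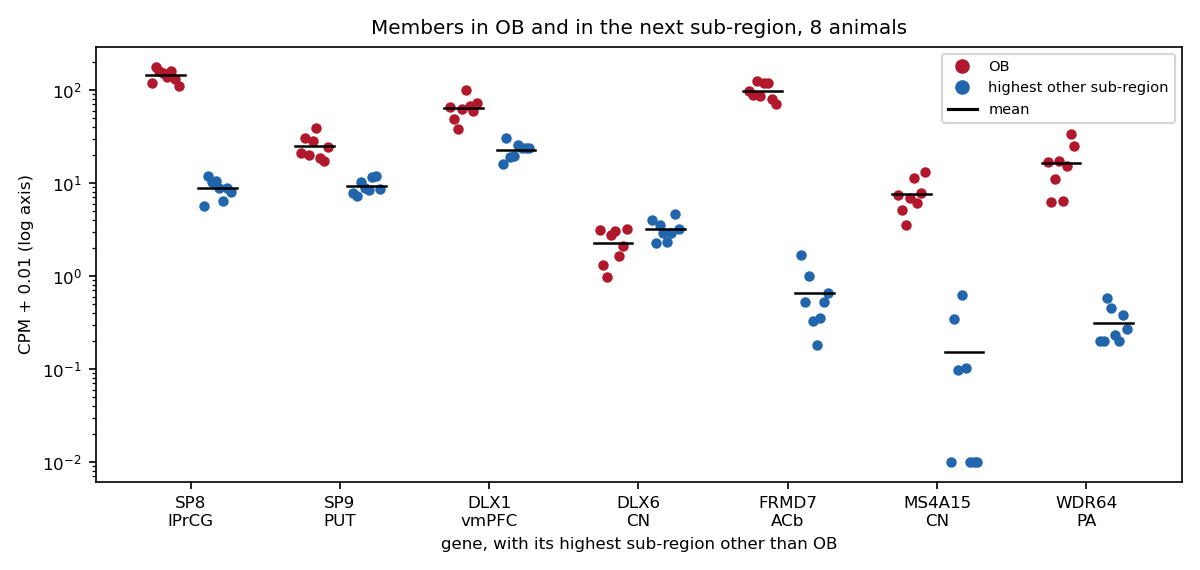
Levels of the 7 members (CPM + 0.01, log axis) in the 8 OB samples (red) and in the 8 samples of the highest other sub-region, named under each gene (blue), with black bars for the means. The groups are apart for every gene except DLX6, whose OB samples (0.956 to 3.21 CPM) overlap those of CN (2.25 to 4.58 CPM).

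DLX1 and SP9 were highest in OB but were not restricted to it. DLX1 had 38.4, 64.3 and 101 CPM in its lowest, median and highest OB samples, and then 22.8 ± 4.37 CPM in the ventromedial prefrontal cortex (vmPFC), 2.83-fold lower. The order continued through the insula, hypothalamus (HTHA, 21.8 ± 4.85 CPM) and other cortical areas, and neighbours in it overlapped except PUT and CC, the corpus callosum. The striatum held 3.90 ± 0.67 CPM of DLX1, below the cortex (18.1 ± 1.46 CPM) in 8 of 8 animals. SP9 had 17.2, 22.8 and 38.6 CPM in OB, and was followed by PUT (9.33 ± 1.73 CPM), CN (8.49 ± 2.35 CPM) and ACb (7.87 ± 3.73 CPM), whose samples overlapped. The striatum exceeded the cortex (2.55 ± 0.59 CPM) in SP9 in 8 of 8 animals.

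DLX6 was the exception to the OB pattern. Its order was CN (3.19 ± 0.80 CPM), PUT (3.03 ± 0.41 CPM), ACb (2.51 ± 0.92 CPM) and OB (2.26 ± 0.89 CPM), and neighbours in that order overlapped. OB was the highest sub-region in 1 of 8 animals. The cortex held 0.584 ± 0.13 CPM, and the striatum exceeded it in 8 of 8 animals. In other mammals an antisense RNA is transcribed across DLX6, and since the strand setting of the counting is not given, reads of the pair cannot be told apart. The second DLX6 row was empty in 398 of 408 samples and never held more than 3 reads.

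**Figure D2:**
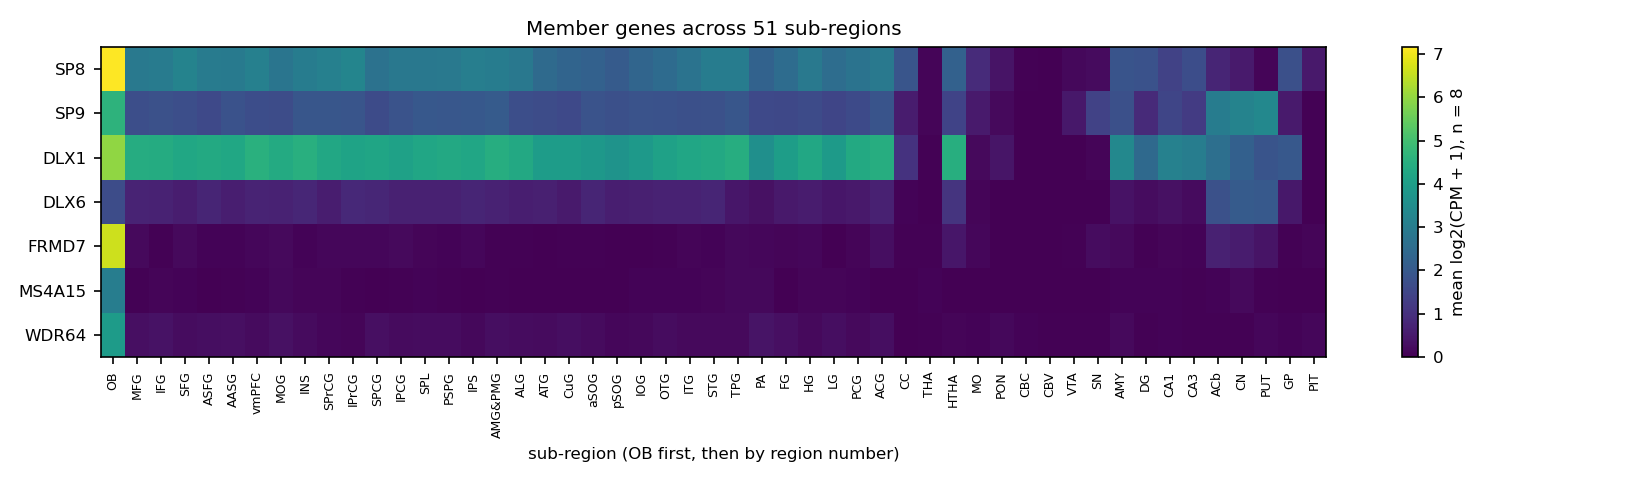
Mean log2(CPM + 1) over 8 animals for the 7 members (rows) in the 51 sub-regions (columns, OB first). FRMD7, MS4A15 and WDR64 stand out in OB alone, while SP8 and DLX1 are highest in OB and extend over the cortex. SP9 is highest in OB and then in ACb, CN and PUT, and DLX6 stands out in ACb, CN, PUT and OB.

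Likeness of pattern was measured as Pearson's r of mean log2(CPM + 1) over the 51 sub-regions, as a description. SP8 and DLX1 had r = 0.88, and 0.92 with OB left out, and SP9 and DLX6 had r = 0.87, and 0.86 with OB left out. FRMD7, MS4A15 and WDR64 had r of 0.97 to 0.99 with each other, but these values rest on OB: over the other 50 sub-regions they were 0.28 for FRMD7 with MS4A15, 0.26 for MS4A15 with WDR64 and -0.18 for FRMD7 with WDR64. The genes most like SP8 were DLX1, PLEKHA1 and VIPR2 (r = 0.88, 0.87 and 0.85). Those most like SP9 were DLX6, GSC2 and CENPS (0.87, 0.86 and 0.86), and those most like DLX6 were GRAP2, SP9 and RAP2C (0.89, 0.87 and 0.87). DLX1 was most like GDA, CDKL1 and ARC (0.92, 0.90 and 0.89). For FRMD7, MS4A15 and WDR64 the list was the other 2 of the trio and TMEM41A (0.96 to 0.97), which had 13.5 CPM in OB and 0.622 CPM in its next sub-region. The values for TMEM41A rest on OB too: with OB left out they were 0.21, 0.18 and 0.017. Within single animals, some of these pairs were less alike. SP9 with GSC2 had r of 0.36 to 0.79, SP8 with VIPR2 0.47 to 0.78 and DLX6 with RAP2C 0.50 to 0.75. SP8 with DLX1 had 0.83 to 0.87. By ranks of the sub-regions, DLX1 with ARC had a Spearman rho of 0.48, and SP8 with DLX1 0.88. The sub-regions share animals and sequencing, so they are not independent points.

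Within the striatum, DLX1 fell from ACb through CN to PUT, while SP9 and DLX6 gave no call. Differences were tested with the quasi-likelihood test of edgeR with the animal as a block, and FDR is the Benjamini-Hochberg adjusted p over all genes tested. Of 3 members tested, 1 was called at FDR below 0.05 in each comparison, where 34.5%, 45.4% and 30.4% of all genes were called for ACb against CN, ACb against PUT and CN against PUT. DLX1 had 3.18, 4.63 and 8.81 CPM as its lowest, median and highest values in ACb, 3.00, 3.57 and 4.19 CPM in CN and 1.97, 2.69 and 3.299 CPM in PUT. The samples overlapped, but ACb exceeded PUT in 8 of 8 animals, with a log2 fold change (log2FC) of 0.97 ± 0.16 (SE) and FDR = 6e-05. ACb exceeded CN in 7 of 8 animals (log2FC 0.53 ± 0.15, FDR = 0.013), and CN exceeded PUT in 8 of 8 (0.44 ± 0.16, FDR = 0.048).

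Markers of cortical excitatory neurons (SLC17A7, NEUROD2 and NEUROD6), cells rich in the cortex where DLX1 is also higher, were uneven among these samples. Their mean log2(CPM + 1) was 5.51, 3.69 and 2.75 in ACb of Rhesus 10, 11 and 7 and 4.50 in PUT of Rhesus 3, against 0.52 to 1.82 in the other ACb samples and 0.19 to 0.83 in CN. Their part in the DLX1 differences was not tested, but the fits were repeated without these 4 animals, an alternative chosen after seeing the data. The DLX1 log2FC was then 1.11 ± 0.25 for ACb against PUT (FDR = 0.0095), 0.60 ± 0.24 for ACb against CN (FDR = 0.18) and 0.52 ± 0.25 for CN against PUT (FDR = 0.29), so the first call held and the others did not. The ACb sample highest in DLX1 (Rhesus 6, 8.81 CPM) had a marker value of 0.54. The next highest in DLX1 (Rhesus 10, 7.47 CPM) had the highest marker value in ACb, 5.51. Oligodendrocyte markers ran opposite to DLX1: all 4 were lower in ACb than in PUT (median log2FC -1.83) and in CN than in PUT (-1.66), with MBP at 2479, 2834 and 9904 CPM in ACb, CN and PUT, and none was called between ACb and CN. Their part was not tested either. The call for CN against PUT was also lost with DESeq2 (FDR = 0.067) and with no replicate block (FDR = 0.12).

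SP9 differed by -0.33 ± 0.17 (ACb against PUT, FDR = 0.12), -0.15 ± 0.17 (ACb against CN, FDR = 0.50) and -0.17 ± 0.17 (CN against PUT, FDR = 0.45). For DLX6 the values were -0.31 ± 0.20, -0.35 ± 0.19 and 0.04 ± 0.19, with FDR of 0.22, 0.16 and 0.89. Of 22 tested factors of the GABA lineage among 27 listed, 7 were higher and 6 lower in ACb than in PUT, including FOXP2 (log2FC 1.62), MEIS1 (-1.45), MEIS2 (0.49) and PBX3 (0.22). The list's median was -0.15, against 0.00 over all genes. Against CN, 1 factor was higher in ACb and 6 were lower, where 2638 and 2473 of all 14827 genes were. The list's median was -0.12, against 0.01 over all genes. Between CN and PUT 11 factors were higher in CN and 1 in PUT, where 2238 and 2266 of all genes were. The list's median was then 0.27, against -0.01 over all genes. All 8 tested markers of medium spiny neurons, the principal striatal cells, were lower in ACb than in CN (median log2FC -0.71, against 0.01 over all genes). Against PUT, 7 were lower and 1 higher in ACb, and between CN and PUT 1 was higher in CN, 3 were lower and 4 were not called.

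**Figure D3:**
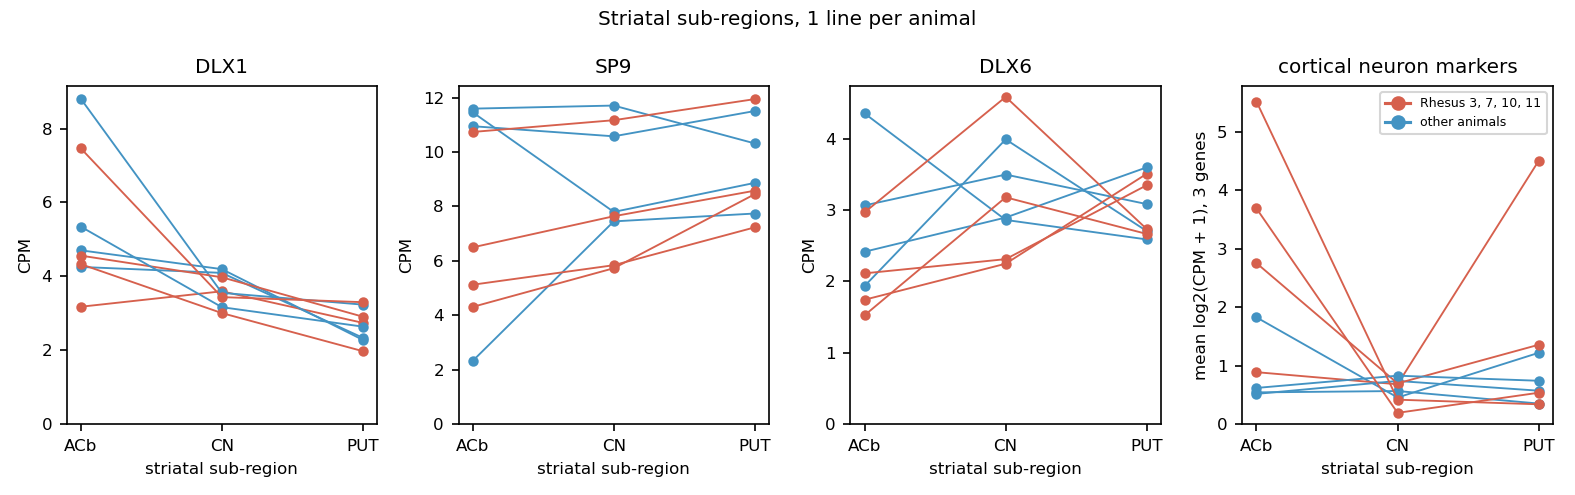
DLX1, SP9 and DLX6 (CPM) and 3 cortical excitatory neuron markers (mean log2(CPM + 1)) in ACb, CN and PUT, with 1 line per animal and the 4 animals with a marker value above 2 in ACb or PUT in red. DLX1 is lower in PUT than in ACb in all 8 animals, and the lines of SP9 and DLX6 cross.

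Among the 5 cortical lobes, SP8 and DLX1 were lowest in the occipital lobe. The lobes leave out PA, where SP8 had 2.25 to 5.18 CPM and DLX1 8.78 to 13.8 CPM, about as low. Counts were summed within each animal over the sub-regions of a lobe, and the test asked whether the 5 lobes differed, with the animal as a block. Of 5 members tested, 3 were called, where 61.5% of all genes were. SP8 was highest in the frontal lobe (5.47, 7.65 and 8.63 CPM as lowest, median and highest) and lowest in the occipital lobe (2.78, 3.31 and 5.58 CPM). These overlapped in their extremes, with 0.97 between the extreme lobes on the log2 scale and FDR = 2.3e-09. DLX1 had 17.2, 20.3 and 22.5 CPM in the frontal and 9.75, 13.4 and 15.4 CPM in the occipital lobe, which did not overlap, with 0.60 between the extremes (FDR = 5.9e-08). DLX6 ranged from 0.637 CPM in the frontal lobe to 0.449 CPM in the limbic cortex (FDR = 0.014), and this call was lost with no replicate block (FDR = 0.32). SP9 (2.18 to 2.75 CPM, FDR = 0.12) and WDR64 (0.128 to 0.193 CPM, FDR = 0.32) were not called. Of 19 GABA lineage factors tested 17 were called, with a median distance between extreme lobes of 0.45, against 0.31 over all genes.

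**Figure D4:**
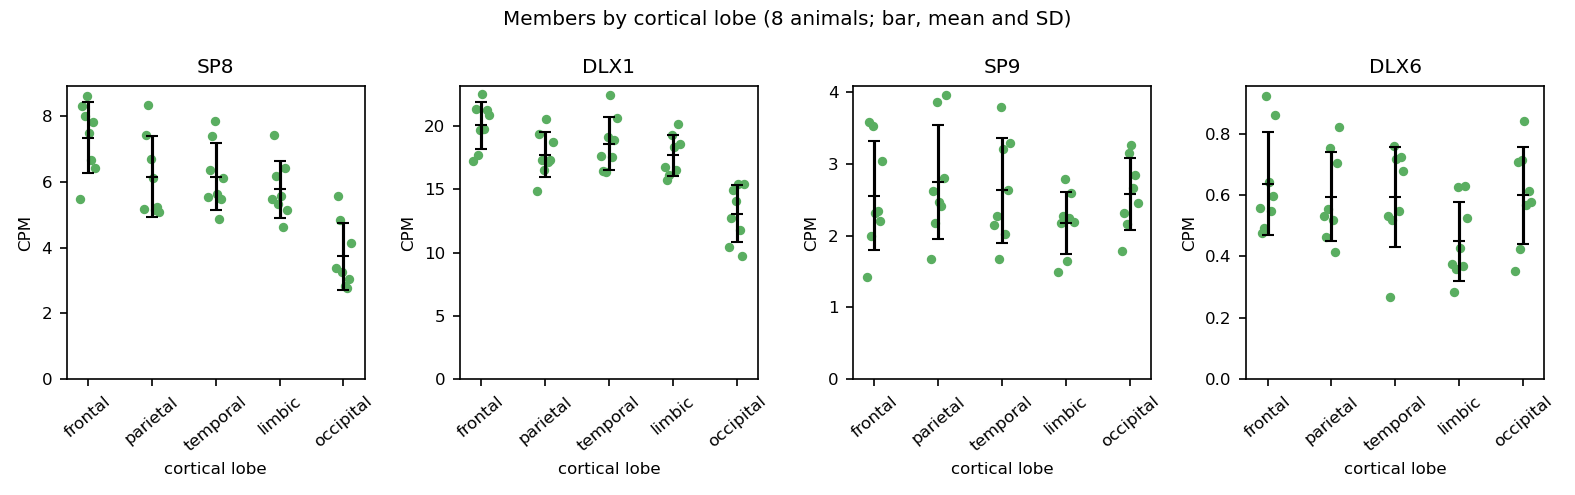
SP8, DLX1, SP9 and DLX6 (CPM) by cortical lobe, with 1 point per animal and bars for mean and SD. SP8 falls from 7.35 CPM in the frontal to 3.74 CPM in the occipital lobe, and DLX1 from 20.0 to 13.1 CPM.

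Among the deeper regions, the hypothalamus carried the DLX and SP members and the thalamus (THA) hardly any. SP8 had 3.84 CPM in HTHA, 3.13 CPM in the globus pallidus and 2.71 CPM in the amygdala. SP9 had 1.80 CPM in HTHA and 2.48 CPM in the amygdala. DLX1 (21.8 and 9.22 CPM) and DLX6 (1.16 and 0.286 CPM) were higher in HTHA than in the amygdala. HTHA was below the cortex in 8 of 8 animals for SP8 and 7 of 8 for SP9. It was above the cortex in 7 of 8 for both DLX1 and DLX6. The test of HTHA against THA called 41.9% of all genes and the 3 members tested. These passed the filter on low values through HTHA alone, so their calls were largely set by the filter and are given as a description. DLX1 had 13.5, 22.8 and 26.9 CPM as lowest, median and highest in HTHA and 2 reads over the 8 THA samples, a ratio of summed levels of 1058, with a 95% counting interval of 293 to 8742. SP8 had 364 counts in HTHA and 7 in THA (ratio 53.1, interval 25.5 to 133), and SP9 174 and 7 (ratio 25.4, interval 12.1 to 64.1). The samples did not overlap for any of the 3. DLX6 was too low for the test and had 110 counts against 1. The intervals are exact and cover counting error only. Cortical neuron markers were high in HTHA of Rhesus 6 (6.10, against 0.51 to 1.70 in the other animals), and without this animal the log2FC of SP8, SP9 and DLX1 were 5.79, 4.94 and 9.29, against 5.60, 4.57 and 9.48 with it. GAD1, GAD2 and SLC32A1, which make and load GABA, were higher in HTHA as well (log2FC 0.73, 1.34 and 1.27). Of 20 GABA lineage factors tested, 6 were higher and 5 lower in HTHA, among them ISL1 (11.98 CPM in HTHA and 0.0396 CPM in THA) and ETV1 (48.9 and 199 CPM).

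In the amygdala (AMY), SP8 and DLX1 were lower than in the cortex. Of 6 members tested 2 were called, both lower, where 42.9% of all genes were called and 23.5% were called lower. SP8 had 1.55 to 3.43 CPM in AMY and 5.22 to 7.40 CPM in the cortex (log2FC -1.22 ± 0.13, FDR = 1.4e-05). DLX1 had 7.50 to 11.3 CPM and 16.01 to 20.7 CPM (-1.002 ± 0.089, FDR = 2.8e-06). Neither gene's samples overlapped. DLX6 differed by -1.14 ± 0.43 (FDR = 0.051, and 0.021 with DESeq2), from 23 counts in AMY. SP9 (-0.09 ± 0.19, FDR = 0.73) was not called, nor were FRMD7 and WDR64, at 0.139 and 0.141 CPM. GAD1, GAD2 and SLC32A1 were all lower in AMY than in the cortex, with a median log2FC of -0.63, against -0.04 over all genes. Of 22 GABA lineage factors tested, 8 were higher and 8 lower in AMY, led by NR2F2 (log2FC 2.98) and FOXP2 (-3.14). All 4 oligodendrocyte markers (median log2FC 0.38) and all 3 microglia markers (0.57) were higher in AMY, and their part was not tested.

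**Figure D5:**
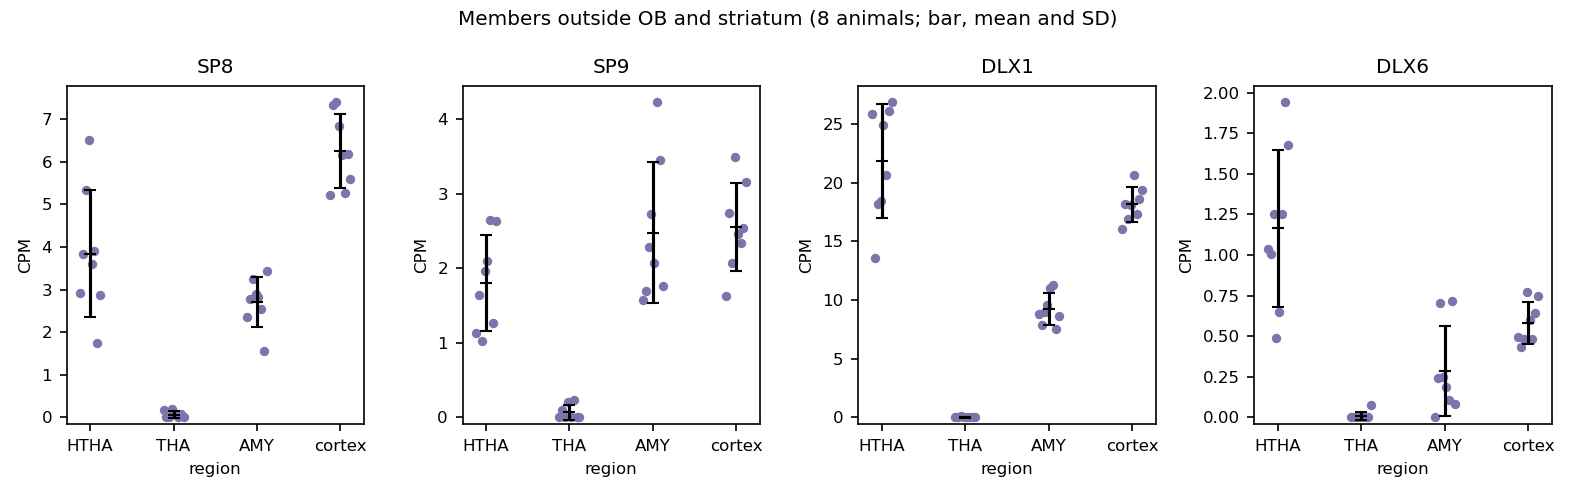
SP8, SP9, DLX1 and DLX6 (CPM) in HTHA, THA, AMY and cortex, with 1 point per animal and bars for mean and SD. All 4 genes lie near 0 in THA, and DLX1 reaches 21.8 CPM in HTHA.

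In the hippocampus, the dentate gyrus (DG) held less SP9 and DLX1 than CA1 and CA3. Of 3 members tested 2 were called, both lower in DG, where 39.4% of all genes were called and 19.6% were called lower. DLX1 had 2.51 to 7.70 CPM in DG and 6.07 to 10.2 CPM in CA1 and CA3 (log2FC -0.73 ± 0.15, FDR = 0.0007) and was lower in DG in all animals but Rhesus 2 (7.70 against 6.39 CPM). SP9 had 0.818 ± 0.30 and 1.71 ± 0.61 CPM and was lower in DG in 8 of 8 animals (-1.004 ± 0.290, FDR = 0.010). It passed the filter on low values mainly through CA1 and CA3, with 5 to 15 counts per DG sample. Its call therefore leans on the filter and is given as a description. SP8 did not pass the test (0.41 ± 0.24, FDR = 0.19). Of 17 GABA lineage factors tested, 4 were higher and 10 lower in DG, with a median log2FC of -0.42 against -0.01 over all genes, and MEIS2 (-2.36) and ETV1 (-1.62) fell most. GAD2 (-0.71) and SLC32A1 (-0.73) were lower in DG as well, while GAD1 was not called (0.11). All 4 oligodendrocyte markers (median log2FC -1.34) and all 3 microglia markers (-0.37) were also lower, and their part in the DLX1 and SP9 differences was not tested. In the cerebellum no member reached the filter for the test of CBV against CBC, the cerebellar cortex, in which 0.842% of all genes were called.

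Age and sex gave no call for any member in OB, striatum or cortex, in groups of 4 animals. The test covered 7, 5 and 7 members in these tissues. For age, 0 genes of the whole table were called by edgeR in OB, striatum and cortex (0.0% in each), against 299, 880 and 1087 at an unadjusted p under 0.05 and 3, 38 and 136 called by DESeq2. For sex, 0.0732%, 0.0992% and 0.0908% of genes were called. FRMD7 in OB had 98.8, 88.6, 86.2 and 70.5 CPM in the mid-aged Rhesus 2, 3, 6 and 11, and 125, 119, 119 and 79.5 CPM in the young Rhesus 4, 7, 8 and 10. These overlap, with a log2FC of -0.35 ± 0.15 for mid-aged against young (edgeR FDR = 1.0). WDR64 in OB averaged 21.6 ± 9.65 CPM in females and 11.2 ± 5.72 CPM in males (log2FC 0.98 ± 0.47, edgeR FDR = 1.0). In the striatum, SP9 averaged 7.19 ± 1.54 CPM in the mid-aged group and 9.92 ± 2.52 CPM in the young group (-0.45 ± 0.20, edgeR FDR = 0.91), and 9.83 ± 1.82 CPM in females against 7.28 ± 2.46 CPM in males (0.42 ± 0.20, edgeR FDR = 1.0). Mid-aged and young animals had 0.320 ± 0.115 and 0.614 ± 0.307 CPM of SP8 in the striatum (-0.84 ± 0.43, edgeR FDR = 0.92) and 0.142 ± 0.032 and 0.216 ± 0.048 CPM of WDR64 in the cortex (-0.61 ± 0.30, edgeR FDR = 0.93).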

How the data were processed

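Per the paper's methods and the labels' processing notes, the authors trimmed poor reads with Trim Galore 0.4.4, mapped them with HISAT2 2.0.5 to Mmul 8.0.1 and counted them on genes with HTSeq 0.6.1. What the authors deposited are raw integer counts for each gene. The deposited assembly, made with StringTie and TACO, gave coordinates only. The sources used here do not state the strand and overlap settings of HTSeq. The members and gene lists were chosen with earlier results of these data known.

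Tests were run in R 4.3.3 with edgeR 4.0.16 (TMM, filterByExpr, quasi-likelihood F test) over all genes passing the filter, and called at FDR below 0.05. Sub-regions of a lobe or region were summed within an animal. Comparisons of regions had the animal as a block, since same-numbered samples come from the same animal. Samples of an animal deviated together, with r of 0.094 to 0.79 over 7 pairs of sub-regions. Age and sex were each adjusted for the other. Genes named were the members, at most 4 genes of a list, and the 3 most similar genes with at least 1 CPM in their highest sub-region. Age and sex values are given for members with an unadjusted p under 0.1, a choice made after the values were seen. Alternatives were DESeq2 1.42.0, its size factors, the paper's detection rule (a count above 1 in at least 3 samples), no block or covariate, and, for age and sex, fits without each animal in turn. On simulated data with 200 of 15032 genes changed 3-fold, 127 were recovered for age in OB, with 9 other calls. Symbols came from a reference table for 17572 rows and from the study's supplement alone for 561. Summaries used Python 3.11.15, numpy 2.4.6, pandas 2.3.3, scipy 1.17.1 and matplotlib 3.10.9. Genes that are not reported here were left out of the lists. The 33 ATAC-seq samples were not analysed here.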

Additional observations from a re-analysis of the deposited data

Results flagged for a closer look

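In OB, ACb, CN, PUT, HTHA and AMY, 41 sets of 8 samples were examined. They were members with more than 3 counts in a sample, and cortical neuron markers. By Dixon's criterion, 7 sets had a sample far from the others. Chance gives about 1 in 20 for normal values only. Sets of a few reads are not of that kind, so the 7 cannot be set against that rate. SP8 stood out high in ACb of Rhesus 10 (2.45 CPM, next 1.04), in CN of Rhesus 4 (1.57 CPM, next 0.477) and in PUT of Rhesus 3 (0.438 CPM, next 0.185). The ACb and PUT samples are those with the highest cortical neuron marker values of their sub-region (5.51 and 4.50), whereas CN of Rhesus 4 had a marker value of 0.74, within the range of CN. WDR64 was also high in PUT of Rhesus 3 (0.548 CPM, next 0.123), and MS4A15 in ACb of Rhesus 3 (0.512 CPM, with 0 in the other 7 samples). These values rest on 5 reads each, and that of SP8 in PUT of Rhesus 3 on 4 reads. The cortical neuron markers themselves stood out high in PUT of Rhesus 3 (4.503, next 1.357) and HTHA of Rhesus 6 (6.104, next 1.699). No OB value of a member stood out.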

How the results depend on the processing

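Limits: many sub-regions hold a few reads per sample of a member, which limits what can be detected there, and groups of 4 animals limit the age and sex tests. With no replicate block, the genes called were 2490 for ACb against CN, 2492 for CN against PUT, 3291 for DG against CA1 and CA3, 16 for CBV against CBC and 5416 for the lobes, and the members called for CN against PUT fell to 0. The block changed the call of no other member than DLX1 (CN against PUT, FDR = 0.12) and DLX6 (lobes, FDR = 0.32). With DESeq2 the genes called were 260 for CBV against CBC, 3, 38 and 136 for age and 32, 27 and 46 for sex in OB, striatum and cortex, and members called for CN against PUT were 0. With the detection rule, members called were 2 for ACb against PUT, 5 for HTHA against THA and 5 for the lobes, since more members were tested. Without Rhesus 3, 7, 10 and 11, 466, 2937 and 883 genes were called for ACb against CN, ACb against PUT and CN against PUT, and members called were 0, 1 and 0, from 4 animals. Leaving out each animal gave 0 to 1 genes for age in the striatum. FRMD7 and WDR64 patterns had r = -0.1784 with OB left out. The causes were not tested.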

Other observations

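The globus pallidus (GP), which borders the striatum, differed from it in SP8. SP8 had 0.948, 0.520, 0.469, 1.70, 6.70, 4.05, 3.13 and 7.49 CPM in GP of Rhesus 2, 3, 4, 6, 7, 8, 10 and 11, above the striatum of the same animal in 7 of 8. These values rest on 5 to 157 counts per sample. SP9 and DLX6 ran the other way, at 0.453 ± 0.29 and 0.395 ± 0.25 CPM in GP, below the striatum in 8 of 8 animals. Cortical neuron markers were at 0.11 to 1.08 in GP. These contrasts were not tested.

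Of the relatives of the members in the count table, DLX3 and DLX4 had their highest levels in the pituitary (2.76 and 0.288 CPM) and were at 0.006 and 0 CPM in OB. SP5 had 2.07 ± 0.78 CPM in OB, after both cerebellar sub-regions. TBR1, a T-box factor of cortical and OB projection neurons, had 6.27 ± 3.68 CPM in OB against 60.3 CPM in the cortex. Chosen after its values were seen, DCX, a marker of immature neurons, was highest in OB at 18.1 ± 13.7 CPM, against 6.02 CPM in the insula. Of the other listed markers of immature neurons, SOX4 ranked 2 in OB (6.11 CPM), SOX11 ranked 3 (2.50 CPM) and CD24 ranked 18 (30.7 CPM, against 118 CPM in CA1).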
